A study of Danio rerio with 4 samples.

Results

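The genes described are those of the proteasome, taken as all genes in the deposited count table whose zebrafish symbol starts with PSMA to PSMG and a digit, whatever the case of the letters. There were 59 among 28290 gene models. They comprised 17 genes of the constitutive core, 21 of the cap, 9 of the immunoproteasome with PA28 (PSMB8 to psmb13a, PSME1 and PSME2) and 6 assembly factors. A further 4 encode other activators and an inhibitor. The remaining 2, PSMC3IP and PSME3IP1, share the name pattern but encode no proteasome subunit. The counts were high enough to test 56 members. PSMB11, psmb11b and psmb13a were not tested. The symbols PSMA6, PSMD2, PSMD11 and PSME4 each stood for a pair of identifiers, and such copies are named with theirs. The RefSeq gene table has a single psmd2, so reads of the PSMD2 identifiers may be split between models of the same gene.

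The proteasome is the barrel-shaped protease that destroys proteins tagged with ubiquitin. Its 20S core holds the catalytic beta subunits between rings of alpha subunits, which gate the entrance. The 19S regulatory cap binds ubiquitin chains, removes them, and unfolds the substrate with a ring of ATPases. In cells exposed to interferon, inducible beta subunits replace the constitutive catalytic ones to form the immunoproteasome, and the PA28 activator can take the place of the cap. These roles are background from yeast and mammals, and proteasome genes are expressed in nearly every cell of an embryo.

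The embryos were whole wild-type zebrafish (*Danio rerio*). In the SYP-3343 group they were exposed to 8 µg/L of SYP-3343, a compound known here by its code name, from 3 to 24 hours post-fertilization. The control group was labelled untreated. Each group had 2 libraries, which the labels call biological replicates, from pooled whole embryos. Nothing says whether they came from separate clutches, so the p-values may reflect technical spread alone. The series title concerns developmental toxicity through reactive oxygen species and mitochondria.

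The library totals lay between 46165614 and 59054470 counts. In bulk RNA from whole embryos, fewer cells of a type and less RNA per cell cannot be told apart. Levels are in CPM, counts relative to the library total after TMM scaling, and means are given ± SD with n = 2 per group. Log2 fold changes are SYP-3343 minus control, ± SE, from edgeR's quasi-likelihood test over 22647 genes. A gene is called where its Benjamini-Hochberg adjusted p is under 0.05. The median log2 fold change of all tested genes was -0.01.

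Proteasome genes were mostly lower in exposed embryos, and most of the falls were in the 19S cap. Before scaling, the 59 members took 0.332% of all counts in both SYP-3343 libraries, and 0.495% and 0.492% in control libraries 1 and 2. Much of that difference was shared by other genes. By library sizes alone, the median log2 fold change was -0.56 for tested members and -0.35 for all tested genes. With TMM these medians were -0.22 and -0.01, and of the 56 tested members, 25 fell, 3 rose and 28 were not called. Over all tested genes, 31.9% were called, of which 15.3% fell and 16.6% rose, as shares of all tested. Among the 5176 genes with a mean log2(CPM + 1) of at least 5, 13.4% fell and 31.4% rose. The fall was made of small changes, since 24 of the 28 called members changed by less than 1.5-fold. The exceptions were the inhibitor gene PSMF1 and the immunoproteasome genes PSMB8, PSMB9 and psmb12. Without SYP-3343 replicate 1, the median log2 fold change was -0.18 for tested members and -0.02 for all tested genes.

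All 21 cap genes had both SYP-3343 libraries below both control libraries, which held for 33.7% of all tested genes, while 32.2% had both above both controls. Over the 56 tested members, 38 had both SYP-3343 libraries below both controls, 4 had both above and 14 overlapped. Of the 21 cap genes, 17 fell and none rose, and the 4 others (PSMC4, PSMD3, PSMD6 and the PSMD11 copy ENSDARG00000005134) had log2 fold changes from -0.20 to -0.18. The median log2 fold change of the cap was -0.31, or 80.9% of the control level. The median of the core genes was -0.15, or 90.2% of control, and 3 of 17 fell, a share of 17.6% that lies near the 15.3% of all genes. Without SYP-3343 replicate 1, the median was -0.30 for the cap and -0.07 for the core, and fewer genes of both were called. The core count depended on the scaling, with 6 of 17 falling with upper-quartile factors and 16 of 17 with library sizes alone. All 21 cap genes fell under both. Over all 22647 tested genes, 4462 fell with upper-quartile factors and 9384 with library sizes alone.

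**Figure D1:**
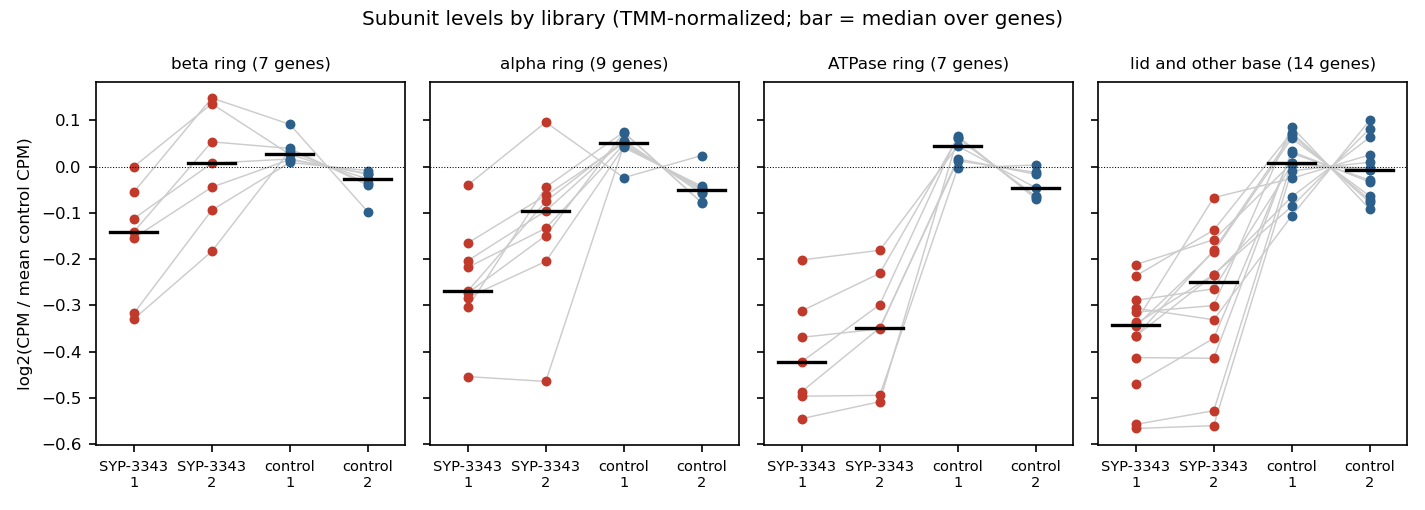
Level of each subunit gene in each library, as log2 of its CPM over its mean control CPM, with SYP-3343 libraries in red, control libraries in blue and the median over genes as a black bar. The alpha ring panel leaves out psma6l, which had few counts. Points of the ATPase ring lie between -0.54 and -0.18 in SYP-3343 libraries and between -0.07 and 0.07 in control libraries, while those of the beta ring overlap between groups.

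The ring of ATPases unfolds substrates and opens the core's gate. Of its 7 genes, 6 fell, beside 15.3% of all tested genes, with a median of -0.36. PSMC2 (ENSDARG00000020101) had 85.8 and 85.9 CPM in SYP-3343 libraries 1 and 2, against 121 and 121 CPM in the control libraries. Its libraries nearly coincided within each group, and it fell (log2 fold change -0.50 ± 0.09, adjusted p = 0.000174). PSMC1 (ENSDARG00000030537) encodes an ATPase whose tail helps to open the gate of the core. It had 106 and 116 CPM in SYP-3343 libraries, against 149 and 147 CPM in controls (log2 fold change -0.42 ± 0.09, adjusted p = 0.0013). Its copy psmc1b (ENSDARG00000043561) had 47.9 and 49.1 CPM in SYP-3343 libraries, against 72.9 and 66.7 CPM in controls (log2 fold change -0.53 ± 0.09, adjusted p = 0.00015). Both copies thus fell with no overlap between groups. The PSMC1 counts were 221% and 237% of those of psmc1b in SYP-3343 libraries, against 205% and 219.9% in controls, so the balance between copies shifted by little more than the libraries differed. PSMC4 had 153 and 155 CPM in SYP-3343 libraries, against 181 and 170.4 CPM in controls, and was not called (adjusted p = 0.113).

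The other base genes encode scaffolds and ubiquitin receptors, and all 5 fell, beside 15.3% of all tested genes. PSMD4 (ENSDARG00000101295), an intrinsic receptor for ubiquitin chains, showed the deepest fall of the cap. It had 51.6 and 51.8 CPM in SYP-3343 libraries, against 75.9 and 76.8 CPM in controls (log2 fold change -0.56 ± 0.09, adjusted p = 4.91e-05). The copy psmd4b (ENSDARG00000023279) had 63.4 and 64.1 CPM in SYP-3343 libraries, against 83.7 and 74.0 CPM in controls. It fell too (-0.31 ± 0.09, adjusted p = 0.0149), but its call ended without control replicate 1 (adjusted p = 0.128, with a range from 7e-05 to 0.128). It also ended without SYP-3343 replicate 1 (adjusted p = 0.0747) or replicate 2 (adjusted p = 0.0545). The PSMD4 counts were 81.3% and 80.8% of those of psmd4b in SYP-3343 libraries, against 90.6% and 104% in controls. The scaffold PSMD1 had 145 and 159 CPM in SYP-3343 libraries, against 179 and 196 CPM in controls. Its fall and those of the PSMD2 copies ENSDARG00000099653 and ENSDARG00000103190 had log2 fold changes from -0.32 to -0.29, and each of these calls ended without control replicate 2. The calls of PSMD1 and the first copy also ended without SYP-3343 replicate 1, and that of the second copy without SYP-3343 replicate 2. The adjusted p ranged from 3.83e-05 to 0.178 for PSMD1, from 0.00013 to 0.19 for the first copy and from 0.000104 to 0.147 for the second.

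The lid carries the deubiquitinase PSMD14, which cuts ubiquitin chains off the substrate. Of its 9 genes, 6 fell, beside 15.3% of all tested genes, with a median of -0.27. PSMD12 (ENSDARG00000052377), a scaffold subunit of the lid, had 80.7 and 82.4 CPM in SYP-3343 libraries, against 119 and 118 CPM in controls (-0.54 ± 0.09, adjusted p = 6.62e-05). PSMD7 (ENSDARG00000102417), the partner of PSMD14, had 62.9 and 67.4 CPM in SYP-3343 libraries, against 88.9 and 85.4 CPM in controls (-0.42 ± 0.09, adjusted p = 0.00112). PSMD8 (ENSDARG00000020454), which joins the lid late in its assembly in yeast, had 96.9 and 96.8 CPM in SYP-3343 libraries, against 132 and 126 CPM in controls (-0.41 ± 0.09, adjusted p = 0.0011). In each of these 3 genes the libraries of a group lay close together and apart from those of the other group. PSMD14 (ENSDARG00000063100) itself had 71.7 and 80.1 CPM in SYP-3343 libraries, against 94.99 and 87.1 CPM in controls (-0.26 ± 0.09, adjusted p = 0.0364). Its call ended without control replicate 1 or SYP-3343 replicate 1, with no low-count filter and with DESeq2, and its adjusted p ranged from 8.41e-05 to 0.317 over the alternatives. The PSMD11 copy ENSDARG00000060150 had 54.8 and 55.7 CPM in SYP-3343 libraries, against 67.1 and 66.8 CPM in controls, and fell (-0.28 ± 0.09, adjusted p = 0.0217). Its call ended without SYP-3343 replicate 1 (adjusted p = 0.129) or replicate 2 (adjusted p = 0.0838), within a range from 9.11e-05 to 0.129. The other copy had 60.9 and 65.2 CPM in SYP-3343 libraries, against 75.4 and 68.0 CPM in controls, and was not called (adjusted p = 0.137). PSMD3 had 91.4 and 110.1 CPM in SYP-3343 libraries, against 113 and 117 CPM in controls, and was not called (adjusted p = 0.133).

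The 10 alpha ring genes had a median of -0.17, with 2 falls, a share of 20% near the 15.3% of all tested genes. PSMA3 (ENSDARG00000086618) stood apart among core genes, with 90.7 and 90.0 CPM in SYP-3343 libraries, against 128 and 120.3 CPM in controls. It fell (-0.46 ± 0.09, adjusted p = 0.000437), and its call held in all 14 alternatives. PSMA5 (ENSDARG00000003526) had 83.2 and 87.9 CPM in SYP-3343 libraries, against 104 and 98.3 CPM in controls, and fell (-0.24 ± 0.09, adjusted p = 0.0428). Its call ended without control replicate 1 (adjusted p = 0.165), SYP-3343 replicate 1 (adjusted p = 0.253) or SYP-3343 replicate 2 (adjusted p = 0.0847), within a range from 8.95e-05 to 0.253. PSMA4, another subunit of the ring, had 90.2 and 95.7 CPM in SYP-3343 libraries, against 108 and 101 CPM in controls, with no overlap and no call (adjusted p = 0.148). The PSMA6 copy ENSDARG00000019398 had 52.0 and 56.7 CPM in SYP-3343 libraries, against 66.1 and 59.6 CPM in controls, again with no overlap and no call (adjusted p = 0.0978). Its copy ENSDARG00000013966, with 28.7 and 34.3 CPM in SYP-3343 libraries and 37.3 and 33.6 CPM in controls, overlapped between groups. The PSMA2 copies had log2 fold changes of -0.15 ± 0.09 (PSMA2) and 0.03 ± 0.09 (psma2a), neither called. The groups overlapped for psma2a, with 48.4 and 53.2 CPM in SYP-3343 libraries and 48.9 and 50.6 CPM in controls. The rare psma6l had 27 and 10 counts in SYP-3343 libraries, against 14 and 18 counts in controls. PSMA8, the only gene named for the alpha subunit of types 7 and 8 here, had 161 and 173 CPM in SYP-3343 libraries, against 187 and 175 CPM in controls. It was not called (adjusted p = 0.38).

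Of the 7 beta ring genes, 1 fell, a share of 14.3% near the 15.3% of all tested genes, and the median was -0.05. The catalytic subunits were PSMB5, with chymotrypsin-like activity, PSMB6, with caspase-like activity, and PSMB7, with trypsin-like activity. PSMB5 (ENSDARG00000075445) had 136 and 159 CPM in SYP-3343 libraries, against 170.5 and 168 CPM in controls (-0.20 ± 0.10, adjusted p = 0.113). PSMB6 (ENSDARG00000002240) had 106 and 117 CPM in SYP-3343 libraries, against 108 and 105 CPM in controls (0.07 ± 0.09, adjusted p = 0.604). PSMB7 (ENSDARG00000037962) had 123 and 134 CPM in SYP-3343 libraries, against 135 and 132 CPM in controls (-0.05 ± 0.09, adjusted p = 0.706). The groups overlapped for PSMB6 and PSMB7, and the 95% intervals of their log2 fold changes ran from -0.12 to 0.26 and from -0.24 to 0.14. With library sizes alone PSMB6 fell (-0.27, adjusted p = 0.0205). The non-catalytic PSMB4 had 134 and 154 CPM in SYP-3343 libraries, against 152 and 144 CPM in controls, which overlapped. PSMB1 (ENSDARG00000009640), also non-catalytic, had 117 and 129.7 CPM in SYP-3343 libraries, against 151 and 144 CPM in controls, and fell (-0.25 ± 0.09, adjusted p = 0.0384). That call was lost when control replicate 1 was left out (adjusted p = 0.137), and likewise for SYP-3343 replicate 1 (adjusted p = 0.316), within a range from 5.54e-05 to 0.316. With the replicate number as a block, the calls of PSMA5 (adjusted p = 0.0604) and PSMB1 (adjusted p = 0.0561) ended too, as they did with no low-count filter (adjusted p = 0.0589 and 0.054). That of PSMA5 also ended with RLE factors (adjusted p = 0.0526).

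**Figure D2:**
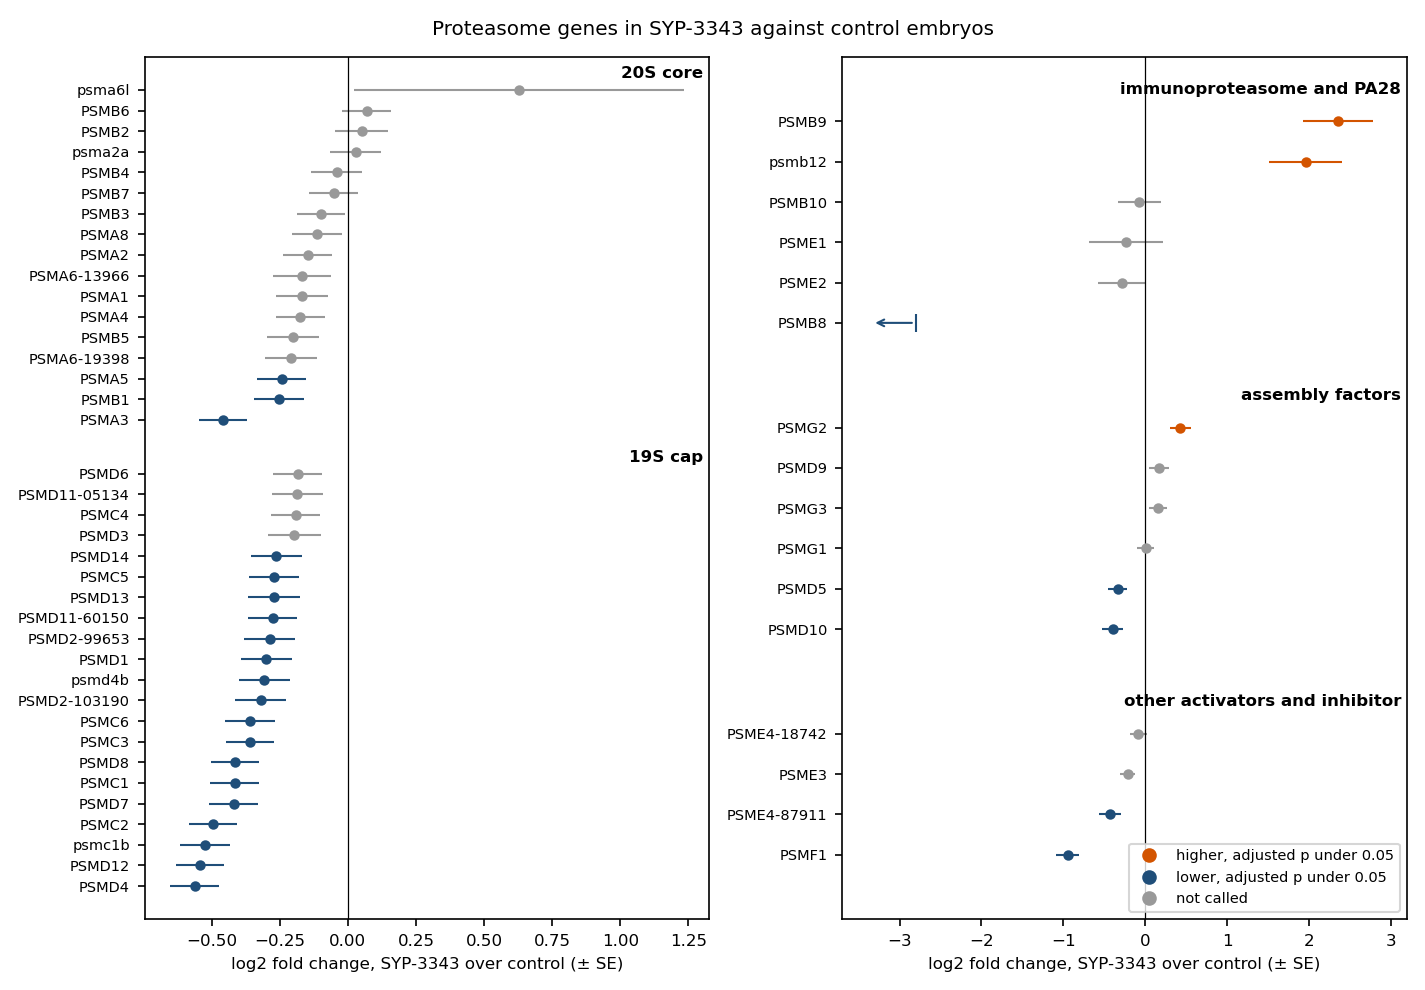
Log2 fold change, SYP-3343 over control, ± SE for every tested member that encodes a proteasome protein, coloured by the call of edgeR's quasi-likelihood test. Digits after a hyphen are the last ones of a copy's identifier. The arrow starts at the floor value of PSMB8, which had 0 counts in SYP-3343 libraries. All 21 cap genes lie left of 0, with PSMD4 lowest at -0.56, and core genes reach from -0.46 to 0.63, the last being psma6l with few counts.

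Ratios of counts within a library do not depend on how libraries are scaled. The counts of the cap were 123% and 118% of those of the core in SYP-3343 libraries, against 136% and 139.9% in controls. The means were 121 ± 3.39% in SYP-3343 and 138 ± 2.93% in controls (SD, n = 2 each), a difference larger than the spread between libraries. The ATPase ring stood at 95.7% and 89.1% of the beta ring in SYP-3343 libraries, against 111% and 109.7% in controls. For the lid the values were 90.2% and 86.6% of the beta ring in SYP-3343 libraries, against 102% and 103% in controls. The alpha ring stood at 89.8% and 86.2% of the beta ring in SYP-3343 libraries, against 95.7% and 93.3% in controls. Groups did not overlap in any of these 4 ratios. With 2 libraries per group an exact two-sided permutation test cannot go below p = 0.333, so the ratios are given as descriptions.

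**Figure D3:**
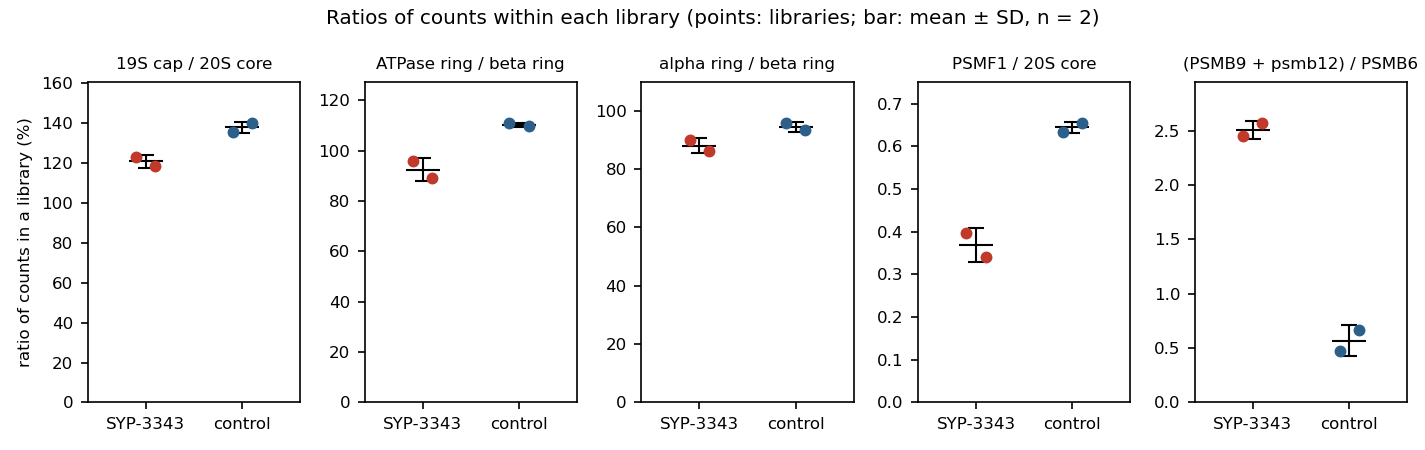
Ratio of summed counts within each library, in percent, with a point per library and the mean ± SD as a bar (n = 2 per group), for SYP-3343 on the left and control on the right of each panel. The cap over core ratio is 121% in SYP-3343 and 138% in controls, and PSMB9 with psmb12 over PSMB6 is 2.51% in SYP-3343 and 0.569% in controls.

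The core has an inhibitor and activators other than the cap, and all 4 of their genes had negative log2 fold changes. PSMF1 (ENSDARG00000022652) encodes PI31, which inhibits the isolated core in vitro and in flies and mammals also links proteasomes to motor proteins. It had 5.94 and 5.61 CPM in SYP-3343 libraries, against 11.3 and 11.0 CPM in controls. The groups were far apart, and PSMF1 fell to 51.9% of the control level (-0.95 ± 0.14, adjusted p = 3.25e-05). Within libraries, where scaling plays no part, its counts were 0.397% and 0.341% of those of the core in SYP-3343 libraries, against 0.635% and 0.654% in controls. PSME4 encodes PA200, a large nuclear activator. Its copy ENSDARG00000087911 had 10.03 and 12.2 CPM in SYP-3343 libraries, against 13.5 and 16.3 CPM in controls, and fell (-0.43 ± 0.14, adjusted p = 0.0176). That call ended without control replicate 2 (adjusted p = 0.172), without SYP-3343 replicate 1 (adjusted p = 0.208) and with DESeq2 (adjusted p = 0.052), within a range from 0.000447 to 0.208. The copy ENSDARG00000018742 had 58.1 and 60.6 CPM in SYP-3343 libraries, against 56.9 and 68.5 CPM in controls, and was not called (-0.08 ± 0.10, adjusted p = 0.576). PSME3, the nuclear form of PA28, had 45.96 and 48.6 CPM in SYP-3343 libraries, against 55.5 and 53.9 CPM in controls, and was not called (adjusted p = 0.0851).

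Assembly factors went both ways. PSMG1 and PSMG2 form a pair that builds the alpha ring in yeast and mammals. PSMG2 (ENSDARG00000035987) had 19.1 and 25.1 CPM in SYP-3343 libraries, against 15.6 and 17.2 CPM in controls, and rose (0.43 ± 0.12, adjusted p = 0.011). Its call ended without SYP-3343 replicate 2 (adjusted p = 0.324) and with library sizes alone (adjusted p = 0.587, over a range from 0.000355). Its partner PSMG1 (ENSDARG00000040620) had 20.2 and 19.8 CPM in SYP-3343 libraries, against 20.7 and 19.2 CPM in controls (95% interval of the log2 fold change from -0.22 to 0.23). PSMG3 had 16.7 and 19.05 CPM in SYP-3343 libraries, against 16.6 and 15.4 CPM in controls, and was not called (adjusted p = 0.325).

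The chaperones PSMD5, PSMD9 and PSMD10 assemble the base of the cap. PSMD10, also known as gankyrin, had 10.3 and 10.8 CPM in SYP-3343 libraries, against 15.3 and 12.6 CPM in controls, and fell (-0.40 ± 0.13, adjusted p = 0.0256). PSMD5 had 14.7 and 17.0 CPM in SYP-3343 libraries, against 21.01 and 18.99 CPM in controls, and fell as well (-0.33 ± 0.12, adjusted p = 0.0323). Neither call was firm. PSMD10 lost its call without control replicate 1 (adjusted p = 0.204), SYP-3343 replicate 1 (adjusted p = 0.119) or SYP-3343 replicate 2 (adjusted p = 0.0582), and PSMD5 without SYP-3343 replicate 1 (adjusted p = 0.304) or control replicate 1 (adjusted p = 0.133). With DESeq2 neither was called (adjusted p = 0.0621 for PSMD10 and 0.0804 for PSMD5). Over all alternatives the adjusted p ranged from 0.000533 to 0.204 for PSMD10 and from 0.000349 to 0.304 for PSMD5. PSMD9 had 14.4 and 17.3 CPM in SYP-3343 libraries, against 13.7 and 14.4 CPM in controls, and was not called (adjusted p = 0.301). The counts of PSMD9 were 139% and 161% of those of PSMD10 in SYP-3343 libraries, against 89.5% and 114% in controls.

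The immunoproteasome genes were all rare in these embryos, with mean control levels of at most 2.12 CPM. Their directions differed from gene to gene. PSMB9, the inducible counterpart of PSMB6, and psmb12, a fish gene of the same catalytic position, rose. PSMB8, the inducible counterpart of PSMB5, fell to no detected counts, and PSMB10, the counterpart of PSMB7, was not called. Nothing says whether the groups shared parents, and differences between clutches in these genes were not tested. In the RefSeq gene table psmb8a, psmb13a, psmb12 and psmb9a follow each other on the chromosome with overlapping spans, so reads may not be fully told apart where the authors' annotation overlaps too.

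PSMB9 (ENSDARG00000000656) had 67 and 75 counts in SYP-3343 libraries, against 12 and 25 counts in controls. This was 1.61 ± 0.189 CPM in SYP-3343 and 0.303 ± 0.0972 CPM in controls, a 5.12-fold rise (log2 fold change 2.36 ± 0.42, adjusted p = 0.000189). The gene psmb12 (ENSDARG00000031885) had 51 and 54 counts in SYP-3343 libraries, against 14 and 22 counts in controls, a 3.89-fold rise (1.96 ± 0.45, adjusted p = 0.00187). Neither gene's groups overlapped, and both calls held in all 14 alternatives. Together these genes stood at 2.45% and 2.57% of the counts of PSMB6 in SYP-3343 libraries, against 0.469% and 0.669% in controls.

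PSMB8 (ENSDARG00000001303) had 0 and 0 counts in SYP-3343 libraries, against 12 and 16 counts in controls, and its fall was called (adjusted p = 0.0124). A count of 0 allows up to 3 counts, taken here over the group, so PSMB8 was at least 6.96-fold lower in SYP-3343. This floor covers counting error only. Its call ended without SYP-3343 replicate 1 (adjusted p = 0.0539, with a range from 0.000718 to 0.0539 over 11 alternatives). DESeq2 gave it no adjusted p, and it was too rare to be tested with the CPM filter or without control replicate 2, so the call held in 10 of 14 alternatives. The neighbouring psmb13a had 0 counts in both SYP-3343 libraries and in control library 1, and 15 counts in control library 2. PSMB11 and psmb11b, counterparts of PSMB5 known from the thymus in mammals, had 0 counts in all 4 libraries.

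PSMB10 (ENSDARG00000043781) had 1.99 and 2.00 CPM in SYP-3343 libraries, against 2.33 and 1.91 CPM in controls (-0.07 ± 0.27, adjusted p = 0.872). The PA28 subunit PSME1 had 1.13 and 0.629 CPM in SYP-3343 libraries, against 1.58 and 0.610 CPM in controls. PSME2, its partner, had 1.52 and 1.30 CPM in SYP-3343 libraries, against 1.76 and 1.70 CPM in controls. Neither was called (adjusted p = 0.732 and 0.507), and the 95% interval of the log2 fold change was wide for both, from -1.17 to 0.70 for PSME1 and from -0.90 to 0.33 for PSME2. The median of the 6 tested genes of this class was -0.15, which does not move when PSMB8 is set to its floor.

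**Figure D4:**
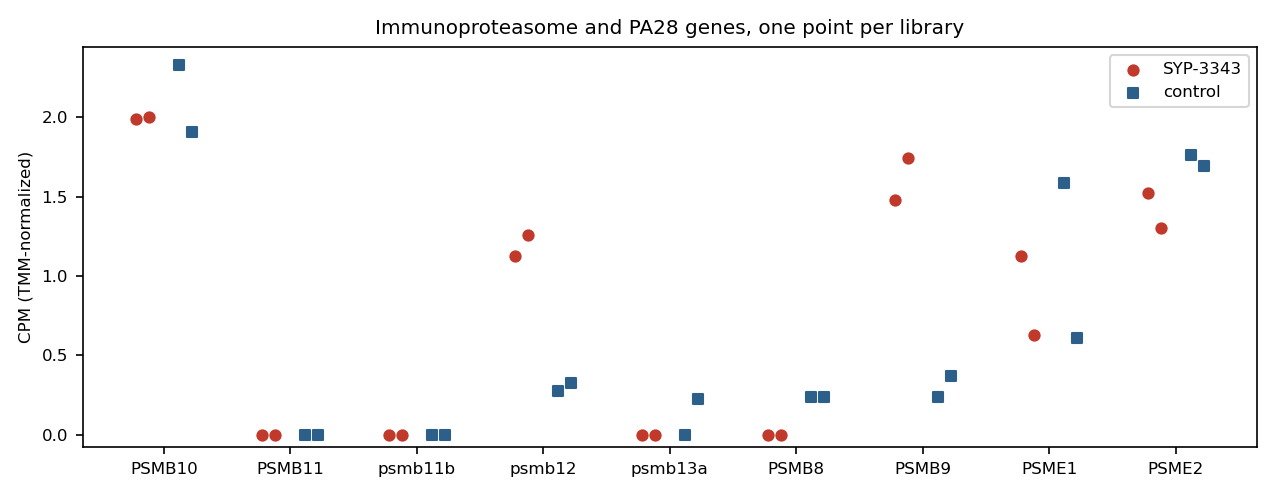
CPM of each immunoproteasome and PA28 gene, with a point per library, SYP-3343 in red on the left and control in blue on the right of each gene. PSMB9 and psmb12 are higher in both SYP-3343 libraries, and PSMB8 is at 0 in both of them.

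Leukocytes are known for immunoproteasome genes, and their markers went both ways. The marker list matched 23 identifiers, of which 20 were tested. The listed markers mpx and mpeg1.1 matched none, so they are not covered. Of these, 4 rose and 2 fell, with a median of 0.02, where 16.6% of all tested genes rose and 15.3% fell. The summed level of the list overlapped between groups, at 119.7 and 112 CPM in SYP-3343 libraries, against 125 and 104 CPM in controls. The list holds 8 MFAP4 copies, of which ENSDARG00000116066 rose (5.29 ± 0.47, adjusted p = 1.72e-08). The copies ENSDARG00000090557 (-1.34 ± 0.18, adjusted p = 6.43e-06) and ENSDARG00000088745 (-0.58 ± 0.20, adjusted p = 0.0358) fell, the second not in every refit (adjusted p up to 0.345, from 0.00191). Both falls of the list were MFAP4 copies, so the 13 other tested markers, set apart after the values were seen, held none by construction. Of these 13, 9 had positive and 4 negative log2 fold changes, and 3 rose, beside 16.6% of all tested genes. The 3 were CORO1A (0.47 ± 0.13, adjusted p = 0.00771), LCP1 (0.39 ± 0.11, adjusted p = 0.0133) and ptprc (0.56 ± 0.21, adjusted p = 0.0452). Without the MFAP4 copies the summed level was 88.2 and 83.1 CPM in SYP-3343 libraries, against 76.5 and 63.8 CPM in controls. The neutrophil lysozyme gene lyz was at 14.5 and 13.3 CPM in SYP-3343 libraries, against 15.1 and 8.25 CPM in controls, and no matched leukocyte marker was at 0 in all libraries. The calls of CORO1A, LCP1 and ptprc ended with library sizes alone, without control replicate 2 and in 1 or more further refits, with adjusted p up to 0.442, 0.753 and 0.416. The part of leukocytes in the immunoproteasome values was not tested.

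Of 19 tested genes for loading peptides on class I molecules, 4 rose and 2 fell, with a median of 0.04. Of all tested genes, 16.6% rose and 15.3% fell. The class I gene mhc1uba had 19.5 and 12.4 CPM in SYP-3343 libraries, against 2.86 and 3.68 CPM in controls, and rose (2.27 ± 0.19, adjusted p = 1.01e-08). The tapasin genes tapbp.1 (1.45 ± 0.31, adjusted p = 0.00111) and tapbp.2 (1.06 ± 0.29, adjusted p = 0.00843) rose, while tapbpl (-0.79 ± 0.20, adjusted p = 0.00399) fell. The call of tapbp.2 ended with library sizes alone and without control replicate 2 (adjusted p from 8.75e-05 to 0.173 over its alternatives). The peptide transporter gene TAP1 had 4 and 10 counts in SYP-3343 libraries, against 15 and 27 counts in controls, and was not called (adjusted p = 0.226). The interferon list had 4 rises and 1 fall among 15 tested genes, beside 16.6% and 15.3% of all tested genes. IRF7, a factor that drives interferon genes, had 16.03 and 17.1 CPM in SYP-3343 libraries, against 3.54 and 2.93 CPM in controls (2.37 ± 0.15, adjusted p = 1.1e-10). The 3 other rises were isg15 (5.99 ± 0.20, adjusted p = 1.12e-14), irf3 (3.38 ± 0.28, adjusted p = 6.57e-09) and irf9 (0.67 ± 0.16, adjusted p = 0.00234), and the fall was stat2, whose call was lost without the second library of either group (adjusted p from 0.00114 to 0.159). The call of irf9 ended with library sizes alone (adjusted p = 0.112, from 0.00082).

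Among proteins that work at the proteasome without being named for it, 3 of 18 tested genes fell and 4 rose, beside 15.3% and 16.6% of all tested genes. The median of the list was -0.18, and 9 of the 18 had both SYP-3343 libraries below both controls, beside 33.7% of all tested genes. With upper-quartile factors 9 fell and 3 rose, and with library sizes alone 11 fell and 0 rose. Of all 22647 tested genes, 4462 fell and 3042 rose with upper-quartile factors, and 9384 fell and 1405 rose with library sizes alone. USP14, the deubiquitinase that binds the cap, had 57.5 and 61.6 CPM in SYP-3343 libraries, against 85.5 and 84.6 CPM in controls, and fell (-0.52 ± 0.09, adjusted p = 0.000146). ECPAS, a scaffold that ties cap to core, had 42.7 and 40.7 CPM in SYP-3343 libraries, against 56.5 and 63.2 CPM in controls, and fell (-0.52 ± 0.09, adjusted p = 0.000224). Both calls held in all 14 alternatives. The cap's further subunits ADRM1 (-0.18 ± 0.09, adjusted p = 0.161) and SEM1 (-0.21 ± 0.09, adjusted p = 0.0835), named after their values were seen, were not called, with both SYP-3343 libraries below both controls. UBQLN4, a shuttle for ubiquitinated proteins, rose (0.44 ± 0.10, adjusted p = 0.00131), as did AKIRIN2 (0.35 ± 0.09, adjusted p = 0.0049), which brings proteasomes into the nucleus in human cells. With library sizes alone these 2 calls ended (adjusted p = 0.359 and 0.884, the highest of their alternatives), and that of AKIRIN2 also without SYP-3343 replicate 2. The core maturation factor POMP, named likewise, had 46.6 and 57.6 CPM in SYP-3343 libraries, against 66.7 and 55.1 CPM in controls, and was not called (adjusted p = 0.129).

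The segregase p97, which pulls ubiquitinated proteins out of complexes and membranes and hands them to the proteasome, fell with the cap. Its gene VCP had 299.8 and 314 CPM in SYP-3343 libraries, against 435 and 473 CPM in controls (-0.56 ± 0.10, adjusted p = 0.000142). Its cofactor NSFL1C had 76.7 and 86.6 CPM in SYP-3343 libraries, against 123 and 119 CPM in controls (-0.56 ± 0.09, adjusted p = 7.13e-05). The cofactor PLAA fell (-0.44 ± 0.10, adjusted p = 0.00222), although not without SYP-3343 replicate 1 (adjusted p up to 0.0635, from 3.48e-05). The endoplasmic reticulum protein DERL3 rose (0.73 ± 0.13, adjusted p = 0.000178). In all, 4 of 22 tested genes of the p97 list rose and 4 fell, with a median of -0.03, beside 16.6% and 15.3% of all tested genes. With upper-quartile factors 2 genes of the list rose, beside 3042 of all 22647 tested genes. With DESeq2 1 rose, beside 3328 of all 22647, and with no low-count filter 1 rose, beside 3493 of 25917. Leaving out any library also gave fewer rises. With library sizes alone 1 rose and 15 fell, beside 1405 and 9384 of all 22647 tested genes.

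Ubiquitin itself is made from several genes. The fusion gene rps27a, which also encodes a ribosomal protein, rose (0.94 ± 0.12, adjusted p = 5.54e-06). Its levels were 1365 and 1649 CPM in SYP-3343 libraries, against 832 and 739 CPM in controls. The polyubiquitin genes ubc, ubb copy ENSDARG00000093313 and UBB copy ENSDARG00000002369, named after their values were seen, were not called (adjusted p = 0.269, 0.612 and 0.925). The conjugating enzymes ube2r2 (-0.58 ± 0.12, adjusted p = 0.0009) and UBE2K copy ENSDARG00000013505 (-0.35 ± 0.10, adjusted p = 0.00929) fell. The call of this UBE2K copy did not survive leaving out the first library of either group (adjusted p ranging from 6.1e-05 to 0.0883). The main activating enzyme gene uba1 was not called (-0.08 ± 0.10, adjusted p = 0.584). In all, 2 of 13 tested genes of the list rose and 2 fell, beside 16.6% and 15.3% of all tested genes. The median of the list was 0.08.

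In mammals the transcription factor NRF1, encoded by NFE2L1, raises proteasome genes when proteasome capacity is short. It is activated by the protease DDI2. The zebrafish copies moved apart. The gene nfe2l1b had 14.2 and 16.8 CPM in SYP-3343 libraries, against 26.9 and 28.8 CPM in controls, and fell (-0.85 ± 0.11, adjusted p = 5.53e-06). The copy listed as NFE2L1 had 10.5 and 8.76 CPM in SYP-3343 libraries, against 5.30 and 4.23 CPM in controls, and rose (1.03 ± 0.17, adjusted p = 5.76e-05). Both calls held in all 14 alternatives. DDI2 had 59.2 and 61.6 CPM in SYP-3343 libraries, against 75.2 and 78.4 CPM in controls, and fell (-0.35 ± 0.09, adjusted p = 0.00509), although not without SYP-3343 replicate 1 (adjusted p = 0.0551, from 3.31e-05). Of 15 tested factors on the regulator list 7 rose and 1 fell, with a median of 0.18, beside 16.6% and 15.3% of all tested genes. With library sizes alone 2 rose and 4 fell, beside 1405 and 9384 of all 22647 tested genes. The further leading rises were nfe2l2b (2.75 ± 0.15, adjusted p = 1.17e-11) and the small Maf gene maff (0.60 ± 0.10, adjusted p = 0.000105). That of nfe2l2b was the largest of the list, and its call held in all 14 alternatives. The call of maff ended with library sizes alone (adjusted p = 0.0693, from 1.08e-06).

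The size of the fall depended on the scaling, and a change of scaling moves all genes about alike, so distances from the median of all genes are kept by construction. With library sizes alone the median of all tested genes was -0.35, and relative to it the cap stood at -0.29 and the core at -0.14, against -0.29 and -0.13 with TMM. Assembly factors stood 0.09 above all genes under both, but their own median was 0.08 with TMM and -0.25 with library sizes alone. The medians of the ubiquitin, regulator, class I, interferon, leukocyte and autophagy lists, above 0 with TMM, were from -0.32 to -0.14 with library sizes alone. There 2 of the ubiquitin genes rose and 6 fell, and 2 of the class I genes rose and 7 fell. Of the interferon genes 3 rose and 2 fell, and of the leukocyte markers 1 rose and 5 fell. With library sizes alone, 1405 of all 22647 tested genes rose and 9384 fell. The number of members called lower was 25 with TMM, 33 with upper-quartile factors and 46 with library sizes alone. Over all tested genes it was 3455, 4462 and 9384.

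**Figure D5:**
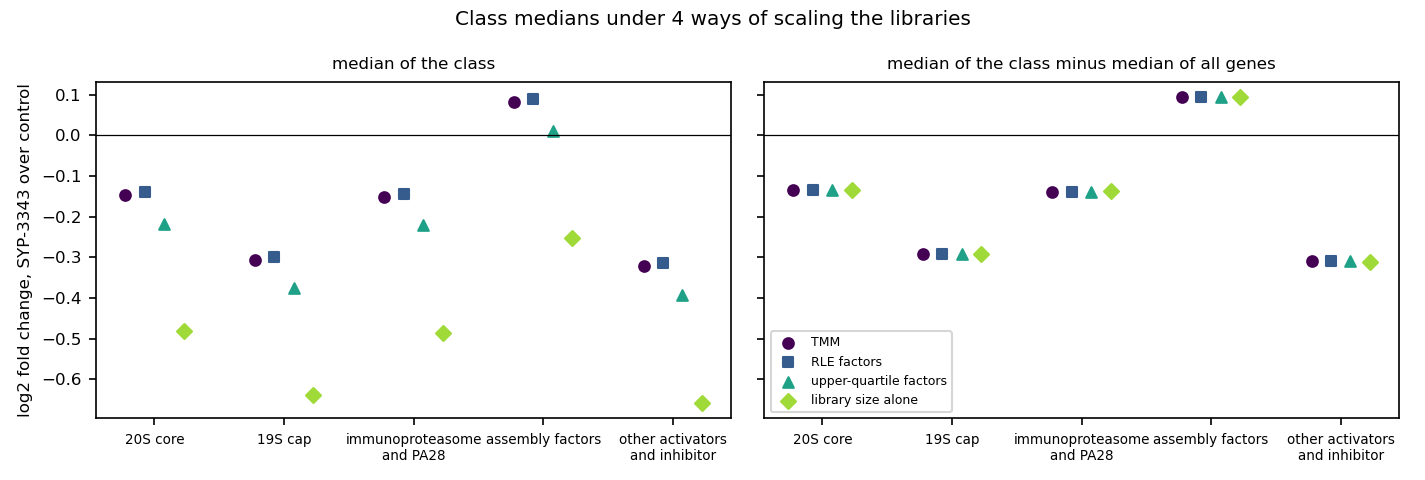
Median log2 fold change, SYP-3343 over control, of each class of proteasome genes under 4 ways of scaling the libraries, on the left as fitted and on the right after subtracting the median of all tested genes. The cap median runs from -0.30 with RLE factors to -0.64 with library sizes alone, and the subtraction brings all 4 values to -0.29, which follows from its construction.

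The genes that share only the name pattern were not called. PSMC3IP, a meiotic recombination factor in mammals, had 2.92 and 2.79 CPM in SYP-3343 libraries, against 2.86 and 3.81 CPM in controls. PSME3IP1, which binds the nuclear PA28, had 28.2 and 25.4 CPM in SYP-3343 libraries, against 28.8 and 24.8 CPM in controls.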

How the data were processed

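Poly-A RNA of whole embryos was sequenced in 4 libraries. The deposited table holds the authors' raw counts per gene model. The submitters' processing notes list DESeq2 1.14.1, featureCounts 1.6.2, HTSeq, HISAT2 and TopHat2 beside build GRCz11, without saying what each did. Annotation and strand setting: not given in the sources used here, so antisense or overlapping genes may share reads.

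Identifiers were matched to symbols with a gene name table, and 23607 of 28290 models had one. The RefSeq gene table (GRCz12tu) served only for names and neighbours. Genes were kept by edgeR's filterByExpr (minimum count 10), scaled by TMM (factors 0.923 and 0.86 for SYP-3343 replicates 1 and 2, 1.11 and 1.14 for controls) and compared by the two-sided quasi-likelihood F test (edgeR 4.0.16, R 4.3.3), without a block. Of 160 list symbols, 131 matched as written, 17 by the capital form and 12 not at all. Members and lists were chosen with earlier results of these data known. Values by library are given for up to 6 members of each class with the smallest p and up to 2 with the largest p, for every tested immunoproteasome and assembly gene and for copies of these. Other members are named after their values were seen. Of each list, up to 4 genes with the smallest adjusted p are named, and any other list genes are named after their values were seen. One gene of the ubiquitin list is counted but not reported here by name. Alternatives were DESeq2 1.42.0, limma-voom (limma 3.58.1), robust estimation, a replicate block, leaving out each library, scaling by RLE, by upper quartiles or by library size alone, dropping the filter, keeping genes with CPM of 1 or more in 2 libraries, and a threshold of 0.01. The legacy quasi-likelihood fit was added after seeing the data. The code was tested on simulated data.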

Additional observations from a re-analysis of the deposited data

How the results depend on the processing

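In all 14 refits, 12 of the 28 called members kept their call, among them 8 of 17 cap genes, PSMA3, PSMF1, PSMB9 and psmb12, and none of the 28 changed sign. With library sizes alone 1405 genes rose and 9384 fell, 46 members fell, and the class medians were -0.56 for all members, -0.48 for the core, -0.64 for the cap, -0.49 for the immunoproteasome, -0.25 for assembly factors and -0.66 for other activators and the inhibitor. The uncalled psma2a, PSMG1 and PSME3IP1, near 0 with TMM, fell there (-0.31, -0.33 and -0.33). With upper-quartile factors the medians were -0.29 for all members, -0.38 for the cap and 0.011 for assembly factors. These shifts follow from the scaling, which moves the median of all genes. At an adjusted p of 0.01, 2039 genes and 11 members fell. The replicate numbers are not said to pair the libraries. Deviations of same-numbered libraries had a correlation of -0.03 across genes, which cannot settle pairing with 2 libraries per group. With the replicate block 23 members fell and 3 rose, with 3763 genes higher and 3485 lower. Leaving out each library in turn, members falling numbered from 11 to 21 and members rising from 2 to 3, while genes rising ranged from 2873 to 3611 and genes falling from 2483 to 3115. The medians then ranged from -0.29 to -0.18 for all members, from -0.21 to -0.07 for the core, from -0.37 to -0.30 for the cap, from -0.40 to 0.07 for the immunoproteasome, from 0.02 to 0.12 for assembly factors and from -0.42 to -0.23 for the others. Where a group was down to 1 library, its spread was taken from the other group. The counts that follow cover the 39 members chosen by the naming rule, over the refits and the stricter threshold of 0.01. Of these values, 506 kept direction and call, 37 lost a call and 19 gained one. A further 17 changed sign without a call, and 3 changed sign and were called. Outside the rule, PSMB2 and PSMB6 did so with library sizes alone (-0.28 and -0.27). The rarity of immunoproteasome reads limits what can be seen of that class.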

Other observations

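Autophagy is the other main route of protein breakdown. Of 22 tested genes for its receptors and for the lipidation of its membranes, 8 rose and 3 fell in edgeR's quasi-likelihood test, with a median log2 fold change of 0.17, beside 16.6% and 15.3% of all tested genes. Among the more abundant genes, of mean log2(CPM + 1) of at least 5, 31.4% rose. SQSTM1, the receptor that binds ubiquitinated cargo, had 49.6 and 40.0 CPM in SYP-3343 libraries, against 31.2 and 25.2 CPM in controls, and rose (0.67 ± 0.12, adjusted p = 0.000132), a call that held in all 14 alternatives. WIPI1 (0.37 ± 0.10, adjusted p = 0.00515), gabarapb (0.35 ± 0.10, adjusted p = 0.00929) and MAP1LC3B (0.33 ± 0.09, adjusted p = 0.0102) rose as well. Those 3 calls ended with library sizes alone (adjusted p = 0.777, 0.879 and 0.959, the highest of their alternatives). The calls of gabarapb and MAP1LC3B also ended without control replicate 2, and that of gabarapb without SYP-3343 replicate 2. With library sizes alone 1 gene of the list rose and 7 fell, beside 1405 and 9384 of all 22647 tested genes. With upper-quartile factors 5 rose and 3 fell, beside 3042 and 4462 of all 22647. Fewer genes of the list rose without control replicate 2 or without either SYP-3343 replicate, as was so over all tested genes. Without control replicate 1 more of the list rose. Leaving out each library in turn, the median of the list ran from 0.11 to 0.31.

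The libraries of a group differed by a median of 0.15 (SYP-3343) and 0.16 (control) on the log2 scale over tested genes above 0 in all libraries. For cap genes these medians were 0.05 and 0.09, and for core genes 0.14 and 0.08. These sets were not matched for level, and mean control levels of cap genes were 64.5 CPM or more. Core genes were mostly higher in SYP-3343 replicate 2 than in replicate 1, by a median of 0.12.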
